A study of Mus musculus with 6 samples.

Results

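Immunoglobulin variable (V) segments are the gene pieces that encode most of the antigen-binding domain of an antibody chain. All genes whose symbols begin with Ighv (heavy chain), Igkv (kappa light chain) or Iglv (lambda light chain) were taken if their raw counts summed to at least 10 over the 6 libraries. This rule found 192 segments among the 348 V segments in the count tables, of 55487 genes in all. They comprised 96 heavy, 93 kappa and 3 lambda segments. The segments were thus selected on their summed count over all 6 libraries, and that value is given only as a description.

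The libraries came from hearts of C57BL/6 mice. Digested hearts were pooled, non-myocyte cells were cleaned of debris and magnetic beads against Cd11b, a surface integrin of myeloid cells, enriched the cells that were sequenced. The control group (WT) held 3 pools from mice with floxed Egfr alleles (Egfr f/f), and the deleted group (KO) held 3 pools from mice labelled Egfr mKO, in which Egfr, the epidermal growth factor receptor, was deleted in myeloid cells. Each pool held 5 hearts except KO pool 3, which held 6. The labels name no Cre driver, no age and no further treatment, and since each library is a pool of hearts, p-values reflect how far pools of one genotype differ from each other, not single animals.

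A V segment is expressed in full only after a developing B cell has joined it to a J segment (and, in the heavy chain, a D segment) and to a constant region. Each mature B cell uses mainly 1 heavy and 1 light chain, so the mix of V transcripts in a tissue reflects how many B-lineage cells are present, how much immunoglobulin RNA each holds and which rearrangements they carry. Most mouse B cells carry a kappa chain. Mouse hearts are known to contain B cells, many of them in the small vessels, and some B cells, among them B-1 cells of the body cavities, also carry Cd11b.

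Segments in one family can be near-identical, which matters for reading any single segment. The pair of kappa segments with the highest mean levels, Igkv1-110 (chr6:68270968-68271267, plus strand) and Igkv1-117 (chr6:68121528-68121827, plus strand), show this best. Their coding sequences are 359 bases each and 97.2% identical, and capitals mark the 10 positions at which they differ. Shown here and in the next set are the last 298 to 300 bases of each reference coding sequence, all from its last coding exon, with GRCm38 positions and sequences from GENCODE M21, written 5′ to 3′ in the sense of the gene. None was read from the pools.
Igkv1-110: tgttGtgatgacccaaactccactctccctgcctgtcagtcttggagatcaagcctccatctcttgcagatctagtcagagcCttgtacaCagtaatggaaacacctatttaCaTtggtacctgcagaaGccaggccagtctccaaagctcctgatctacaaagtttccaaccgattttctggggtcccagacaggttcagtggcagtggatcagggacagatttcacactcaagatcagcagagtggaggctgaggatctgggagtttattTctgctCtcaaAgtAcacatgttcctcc
Igkv1-117: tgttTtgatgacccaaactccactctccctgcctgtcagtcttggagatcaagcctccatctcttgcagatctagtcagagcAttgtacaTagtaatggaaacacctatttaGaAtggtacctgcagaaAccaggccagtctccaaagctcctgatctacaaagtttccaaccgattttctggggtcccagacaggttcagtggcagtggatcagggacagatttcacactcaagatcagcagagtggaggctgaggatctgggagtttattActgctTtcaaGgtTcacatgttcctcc

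Further segments are shown because the results below turn on them. Iglv1 (chr16:19085017-19085316, minus strand) and Igkv10-96 (chr6:68631963-68632260, minus strand) had the smallest p-values of all V segments. Ighv12-3 (chr12:114366521-114366820, minus strand), Igkv4-91 (chr6:68768555-68768854, minus strand), Ighv11-2 (chr12:114048241-114048540, minus strand) and Igkv14-126 (chr6:67896345-67896642, plus strand) encode the textbook pairs of B-1 cell receptors against phosphatidylcholine. Capitals run from the last in-frame cysteine codon, where the germline part of the third complementarity-determining region begins, to the end of the segment.
Iglv1: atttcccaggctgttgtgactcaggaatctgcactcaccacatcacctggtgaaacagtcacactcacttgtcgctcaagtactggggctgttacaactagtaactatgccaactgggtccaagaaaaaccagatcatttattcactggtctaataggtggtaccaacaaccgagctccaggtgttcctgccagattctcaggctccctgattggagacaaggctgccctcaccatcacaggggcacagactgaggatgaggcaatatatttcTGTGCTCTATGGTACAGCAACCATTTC
Igkv10-96: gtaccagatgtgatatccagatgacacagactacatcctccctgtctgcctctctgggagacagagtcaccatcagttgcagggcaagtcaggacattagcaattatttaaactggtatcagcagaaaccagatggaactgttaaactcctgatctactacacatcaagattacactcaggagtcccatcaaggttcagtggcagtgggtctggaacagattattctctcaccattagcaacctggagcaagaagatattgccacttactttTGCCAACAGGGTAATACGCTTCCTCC
Ighv12-3: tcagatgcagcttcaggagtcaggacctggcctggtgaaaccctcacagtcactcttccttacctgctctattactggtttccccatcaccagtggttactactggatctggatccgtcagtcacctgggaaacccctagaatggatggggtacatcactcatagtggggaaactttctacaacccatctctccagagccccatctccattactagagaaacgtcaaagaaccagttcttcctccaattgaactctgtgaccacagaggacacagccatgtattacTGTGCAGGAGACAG
Igkv4-91: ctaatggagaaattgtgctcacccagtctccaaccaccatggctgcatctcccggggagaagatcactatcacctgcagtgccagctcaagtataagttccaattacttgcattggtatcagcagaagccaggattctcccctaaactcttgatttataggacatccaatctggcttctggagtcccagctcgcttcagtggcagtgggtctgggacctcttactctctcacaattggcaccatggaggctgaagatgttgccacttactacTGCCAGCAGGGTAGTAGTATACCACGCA
Ighv11-2: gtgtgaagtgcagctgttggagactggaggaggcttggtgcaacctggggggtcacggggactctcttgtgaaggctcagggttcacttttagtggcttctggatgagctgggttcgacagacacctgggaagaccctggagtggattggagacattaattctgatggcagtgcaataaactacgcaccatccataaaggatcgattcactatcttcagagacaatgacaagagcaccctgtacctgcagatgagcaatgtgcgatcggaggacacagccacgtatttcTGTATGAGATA
Igkv14-126: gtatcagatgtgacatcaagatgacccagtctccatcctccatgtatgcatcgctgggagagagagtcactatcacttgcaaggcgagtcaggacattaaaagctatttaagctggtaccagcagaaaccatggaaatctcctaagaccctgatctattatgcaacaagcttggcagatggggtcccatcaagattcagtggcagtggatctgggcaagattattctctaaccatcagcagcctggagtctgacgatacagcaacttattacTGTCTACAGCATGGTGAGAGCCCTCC

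These capitals span 27 bases in Iglv1, 26 in Igkv10-96 and Igkv14-126, 28 in Igkv4-91, 14 in Ighv12-3 and 11 in Ighv11-2, since the heavy chain receives the rest of this loop from its D and J segments. Iglv1 and Iglv2 are 96.9% identical, with 11 differing positions, and Igkv10-96 and Igkv10-94 are 95.4% identical, with 16. Ighv12-3 and Ighv11-2 are only 58.0% identical. Over the coding sequences of all 192 segments, 36 had every 50-base window unique among V segments and 26 had fewer than 50% of such windows unique, which fell to 4 segments with 100-base windows. The median share of unique 50-base windows was 78.61% in heavy and 77.42% in kappa segments. Reads that aligned to more than 1 place made up 7.58% to 8.67% of counted reads per library and were not assigned to genes, so segments with close copies can be undercounted.

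Gene totals were 17780707 to 27485129 reads per library. Egfr was lower in every KO pool (15.95 to 18.53 CPM, read counts scaled to library size, against 43.01 to 54.68), as was Lyz2, the myeloid lysozyme gene (17.42 to 19.33 against 4074 to 6700 CPM), and they were the only genes past an adjusted p of 0.05 in the edgeR fit over 15707 genes. Markers of the labelled cell type were abundant: the macrophage receptor Csf1r stood at 1718 to 3199 CPM, while the B cell marker Cd79a stood at 61.37 to 140.9 CPM. WT pool 2 stood apart in genes of T cells and recombining lymphocytes: Rag1, which cuts DNA in V(D)J recombination, was at 250.2 CPM there, at 37.89 and 41.5 CPM in KO pools 1 and 3, and below 1 CPM in the others. A list of 14 T cell genes summed to 904.8 CPM in WT pool 2 and to 52.79 to 352.4 CPM in the other 5 pools. Several results are therefore also given without WT pool 2, but not all.

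The V segments together took 6303, 4597 and 6190 reads in WT pools 1, 2 and 3 and 12723, 18339 and 13153 reads in KO pools 1, 2 and 3. On the CPM scale, with library sizes scaled by TMM (a trimmed mean of ratios between libraries), the summed heavy segments stood at 98.81, 102.2 and 120.0 in the WT pools. In the KO pools they stood at 202.7, 308.3 and 213.0. Every KO pool lay above every WT pool, and the group means were 107.0 ± 11.4 and 241.3 ± 58.25 CPM (SD, n = 3 each), a ratio of 2.255.

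Kappa and lambda segments were higher in the KO pools as well. The kappa segments summed to 131.9, 127.6 and 159.3 CPM in WT and 263.2, 379.2 and 268.0 CPM in KO, with means of 139.6 ± 17.19 and 303.5 ± 65.6 CPM (SD, n = 3 each) and a ratio of 2.174. The 3 lambda segments summed to 11.85, 9.853 and 8.893 CPM in WT and 20.09, 32.84 and 29.58 CPM in KO, means of 10.2 ± 1.509 and 27.5 ± 6.622 CPM (SD, n = 3 each) and a ratio of 2.696. KO pool 2 was the highest of all 6 pools for each chain, and no group overlapped the other in any chain. Without WT pool 2 the log2 ratios of the group means were 1.14 for heavy, 1.06 for kappa and 1.41 for lambda segments, against 1.17, 1.12 and 1.43 with all pools. Without KO pool 2 they were 0.958, 0.928 and 1.28. No p-value is given for these sums because the segments were chosen with results of these data known. In bulk RNA, more B-lineage cells and more immunoglobulin RNA per cell cannot be told apart.

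**Figure D1:**
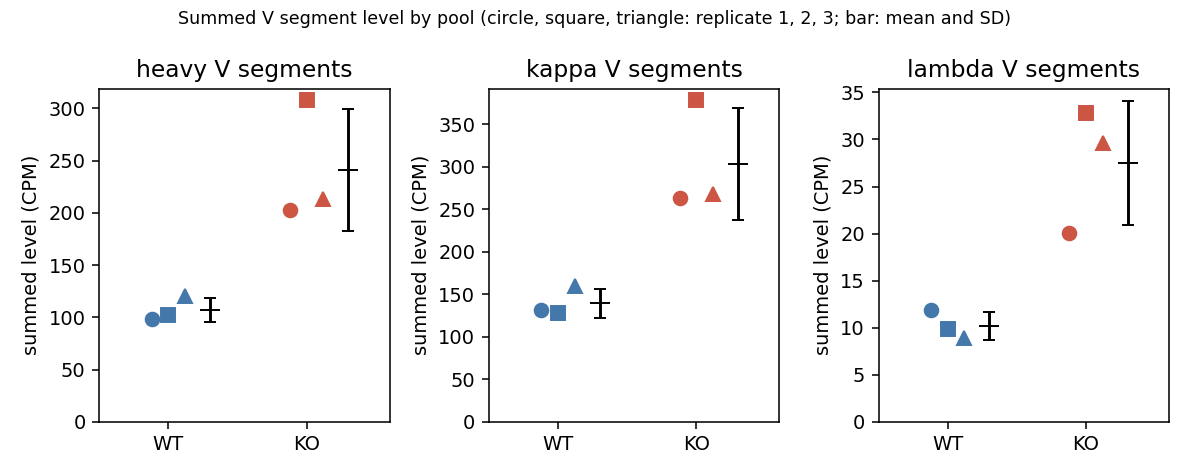
Summed level of heavy, kappa and lambda V segments in CPM for each of the 3 WT and 3 KO pools (circle, square and triangle for replicates 1, 2 and 3), with the group mean and SD as a bar. In each chain all KO pools lie above all WT pools, and KO pool 2 is the highest.

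The balance between chains was nearly the same in both groups. Heavy segments took 40.74% to 42.64% of V reads in WT pools and 41.7% to 42.8% in KO pools, and kappa segments took 53.25% to 55.27% and 52.49% to 54.16%. The ratio of kappa to heavy reads was 1.335, 1.249 and 1.327 in WT and 1.299, 1.23 and 1.258 in KO. The lambda share of light-chain V reads was 8.246% (95% Wilson interval 7.406% to 9.172%), 7.167% (6.244% to 8.215%) and 5.288% (4.604% to 6.066%) in the WT pools. It was 7.092% (6.53% to 7.698%), 7.97% (7.467% to 8.504%) and 9.94% (9.29% to 10.63%) in the KO pools, and the groups overlapped. These intervals cover counting error only.

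Segment by segment, every KO pool was above every WT pool for 83 of the 192 segments (43.2%), against a background of 8.36% of the 20405 genes with at least 10 summed counts. No V segment had every KO pool below every WT pool, where the background was 9.42%. By chain the count was 40 of 96 heavy, 41 of 93 kappa and 2 of 3 lambda segments. The share depended on level: it was 21 of 83 segments below a mean of 1 CPM (background 4.34%), 47 of 87 from 1 to 5 CPM (background 6.77%) and 15 of 22 from 5 CPM upward (background 11.2%). The KO mean was the higher one in 168 of 192 segments, 84 heavy, 81 kappa and 3 lambda, against 48.2% of all genes. The median log2 ratio of group means was 1.304 over heavy, 1.109 over kappa and 1.555 over lambda segments, and -0.016 over all 20405 genes. That ratio is undefined for Igkv4-56, which had no read in any WT pool.

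In the edgeR quasi-likelihood fit, 138 of the 192 segments passed the filter on low counts (70 heavy, 65 kappa and 3 lambda) and 0 were called at an adjusted p of 0.05, against a background of 0.0127% of the 15707 genes tested. At an unadjusted p under 0.05 the fit had 77 segments higher in KO and 1 lower, against backgrounds of 4.77% and 10.6%. DESeq2 called 57 of 192 segments, all higher in KO (background 0.586%), and edgeR without the filter called 55 (background 0.479%), of which 54 were also called by DESeq2. These backgrounds are over the 28992 and 29010 genes tested, which include genes with very few reads. The segments all had at least 10 summed counts, so the gene sets are unlike. limma-voom called 0, with 79 segments higher in KO and 0 lower at an unadjusted p under 0.05 (backgrounds 5.07% and 8.93%). Without WT pool 1, edgeR called 28 segments higher and 1 lower of 148 tested (backgrounds 2.33% and 5.97%), and without any other single pool it called 0. Whether a single segment is called therefore rested on the tool, the filter and WT pool 1.

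**Figure D2:**
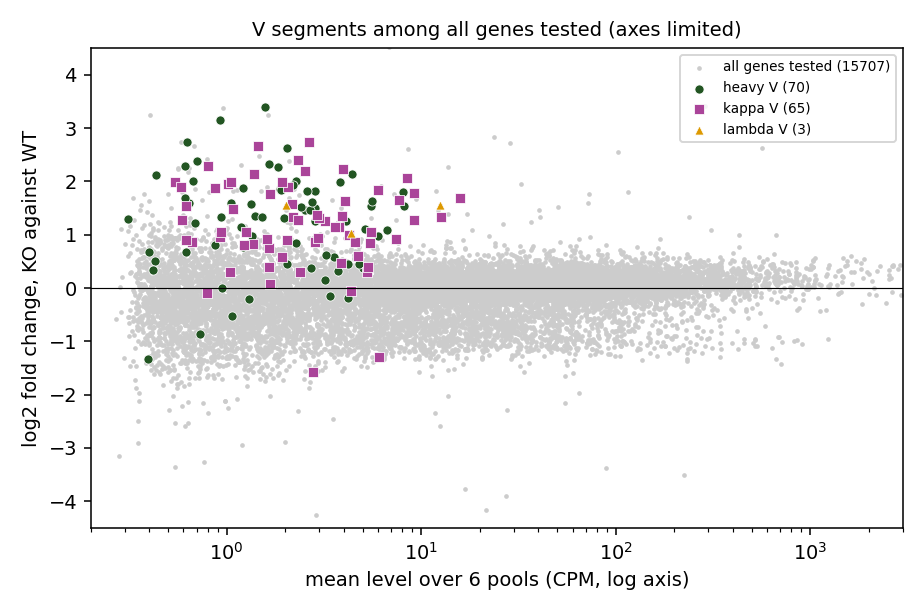
The log2 fold change of KO against WT from the edgeR fit (vertical axis) against the mean level over the 6 pools in CPM (horizontal log axis), for all 15707 genes tested in grey and the 70 heavy, 65 kappa and 3 lambda V segments in colour. Most V segments lie above 0, and the axes are limited, so a few other genes fall outside.

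Among light chains, lambda has the fewest segments. Iglv1, the segment of the main mouse lambda chain, was at 7.118, 6.36 and 5.494 CPM in WT and 15.55, 21.25 and 18.94 CPM in KO, a log2 fold change of 1.55 (SE 0.18; adjusted p = 0.0746 in edgeR). The KO pools lay wholly above the WT pools, and this was the smallest adjusted p of any V segment. Iglv1 lies inside a gene on the opposite strand, and the strand setting of the counting is not given in the sources used here, so reads of the gene pair cannot be told apart. Iglv2 was at 3.578, 2.242 and 2.747 CPM in WT and 3.056, 7.777 and 6.871 CPM in KO, and the groups overlapped through KO pool 1. Iglv3 was lower in level, at 1.154, 1.251 and 0.6518 CPM in WT against 1.49, 3.81 and 3.765 CPM in KO, without overlap. Iglv1 held 60.06% to 64.55% of lambda reads in WT and 64.04% to 77.38% in KO.

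Per kilobase of exon, the highest mean levels over the 6 pools belonged to Igkv1-110 (39.5 CPM per kb), Iglv1 (31.85), Igkv1-117 (31.16) and Igkv4-91 (25.73), while the leading heavy segments, Ighv9-3 and Ighv3-6, stood at 23.3 and 22.93. All segments have short exons, from 313 to 480 bases with a median of 359, so ranks by CPM and by CPM per kb were close. Igkv1-110 was at 9.427, 6.882 and 6.053 CPM in WT and 15.81, 41.99 and 14.87 CPM in KO. Its close copy Igkv1-117 was at 10.04, 5.005 and 6.286 CPM in WT and 16.2, 23.1 and 14.91 CPM in KO. Both had every KO pool above every WT pool, with log2 fold changes of 1.70 (SE 0.42) and 1.34 (SE 0.29) and edgeR adjusted p of 0.192 and 0.180. In KO pool 2 Igkv1-110 was almost 42 CPM while Igkv1-117 was 23.1 CPM, a wider gap than in any other pool, and without that pool the log2 fold change of Igkv1-110 was 1.042. Igkv1-135, of the same family, is the farthest from the J segments of the 93 kappa segments taken. It was at 4.04, 3.962 and 4.47 CPM in WT and 9.282, 20.31 and 13.16 CPM in KO. Its log2 fold change was 1.78 (SE 0.29), with an adjusted p of 0.148 in edgeR.

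Several further kappa segments had every KO pool above every WT pool. Igkv10-96 was at 3.386, 3.754 and 3.958 CPM in WT and 9.816, 14.3 and 10.79 CPM in KO, a log2 fold change of 1.65 (SE 0.21; adjusted p = 0.0836 in edgeR). Igkv10-94, its close copy, was at 1.116, 0.5735 and 1.024 CPM against 4.24, 5.106 and 3.183 CPM. Neither overlapped between the groups. Igkv5-39 was at 3.04, 4.536 and 2.281 CPM in WT and 18.45, 11.98 and 10.71 CPM in KO, a log2 fold change of 2.06 (SE 0.32; adjusted p = 0.148 in edgeR). Igkv3-10 was low in WT, at 0.7695, 0.6256 and 0.6518 CPM, and stood at 5.577, 5.578 and 2.678 CPM in KO. For it edgeR gave a log2 fold change of 2.74 (SE 0.37) and an adjusted p of 0.108. Igkv6-15 was at 3.578, 1.564 and 2.654 CPM against 6.035, 10.09 and 11.92 CPM.

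The other kappa segments that the p-value rule named were of low level. Igkv6-25, Igkv8-21, Igkv3-7 and Igkv14-100 had WT means of 0.7255, 0.7649, 0.3898 and 0.4161 CPM and KO means of 3.941, 3.083, 2.503 and 1.625 CPM, and each had all KO pools above all WT pools. Their log2 fold changes were 2.41, 2.00, 2.67 and 1.95, and their edgeR adjusted p-values 0.158, 0.158, 0.158 and 0.172. The rule took the smallest p-values of this same comparison. That choice favoured separate groups and large fold changes, in these and in the other segments it named.

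Of the heavy segments, Ighv3-6 was at 5.271, 1.616 and 3.771 CPM in WT and 10.27, 13.32 and 13.9 CPM in KO, a log2 fold change of 1.80 (SE 0.38; adjusted p = 0.174 in edgeR). Ighv1-26, a member of the large Ighv1 (J558) family, was at 4.579, 2.555 and 5.634 CPM in WT and 8.976, 9.977 and 8.268 CPM in KO. Ighv14-2 was at 2.77, 1.981 and 3.352 CPM against 6.111, 12.33 and 6.793 CPM, and Ighv10-1 at 3.578, 2.294 and 2.607 CPM against 5.386, 10.53 and 8.734 CPM. In all 4 the KO pools lay above the WT pools. Ighv1-69 and Ighv1-50, at WT means of 0.8149 and 1.257 CPM, had KO means of 2.951 and 4.446 CPM, also without overlap.

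Ighv9-3 had the highest mean level of any heavy segment but did not separate the groups. It was at 1.616, 1.929 and 8.986 CPM in WT and 6.035, 21.8 and 8.695 CPM in KO, high in WT pool 3 and KO pool 2. Ighv6-3 differed in the other direction: it was at 3.309, 6.047 and 4.097 CPM in WT and 4.393, 4.163 and 3.183 CPM in KO, and its log2 fold change of -0.19 (SE 0.28, with an adjusted p of 0.791 in edgeR) was 0.073 without WT pool 2. Igkv12-89 was at 4.348, 5.578 and 15.97 CPM in WT and 1.986, 7.541 and 1.009 CPM in KO, and the fitted log2 fold change was -1.30 (SE 0.76; adjusted p = 0.460 in edgeR). It was -0.493 without WT pool 3 and -2.516 without KO pool 2. Igkv3-2 was at 1.0, 8.498 and 2.281 CPM against 13.03, 4.753 and 3.183 CPM. In each of these 4 segments the range within at least 1 group was wider than the gap between the group means.

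**Figure D3:**
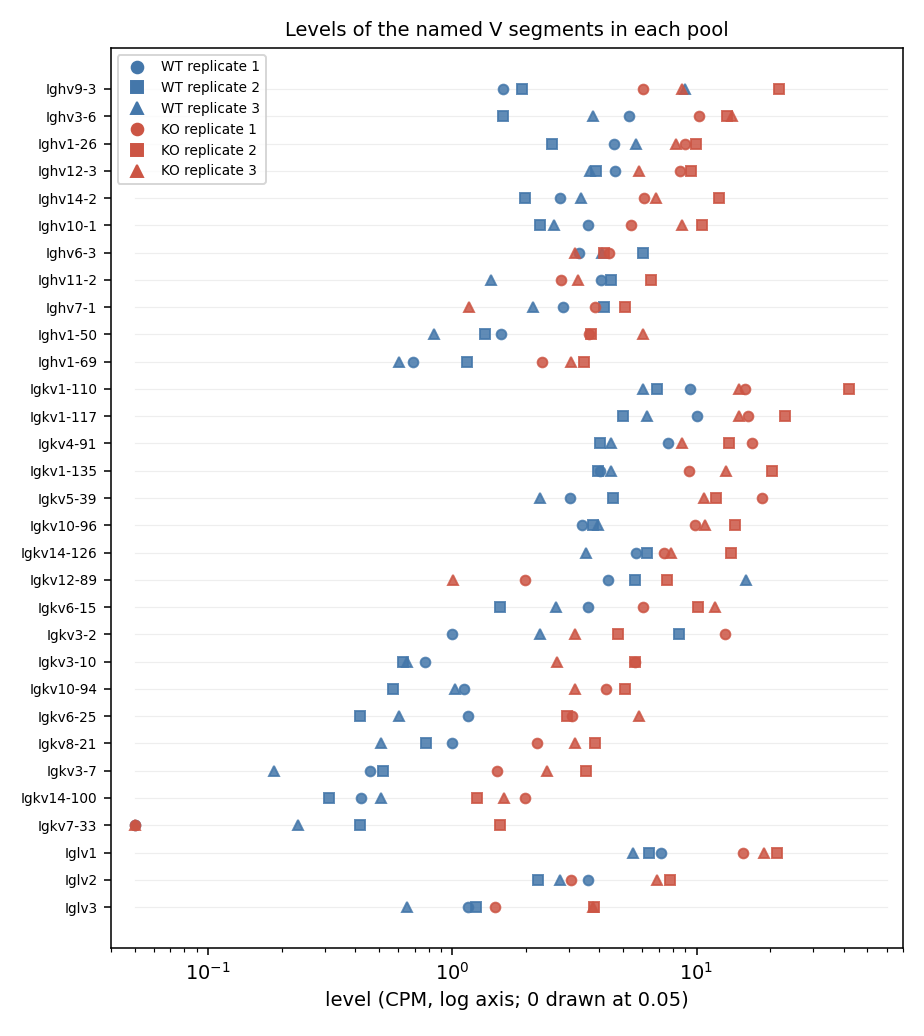
Level in CPM (log axis) of the 31 named V segments in each WT (blue) and KO (red) pool, with 1 symbol for each replicate and 0 drawn at 0.05. Segments such as Iglv1 and Igkv10-96 show a gap between the groups, while Ighv9-3, Igkv12-89 and Igkv3-2 show mixed colours.

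A few segments outside the naming rule are given because their values were extreme, and were chosen after their values were seen. Igkv4-55 was the 1 segment with a lower KO level and an unadjusted p under 0.05, at 1.27, 3.493 and 7.729 CPM in WT and 1.757, 0.9427 and 1.475 CPM in KO (log2 fold change -1.57 with SE 0.61; adjusted p = 0.281 in edgeR). WT pool 1 lay within the KO range, and without it the adjusted p was 0.0332. Ighv1-85, of the 96 heavy segments taken the farthest from the J segments, was at 0.1154, 0.7299 and 0 CPM in WT and 1.604, 3.417 and 3.61 CPM in KO. Of the tested segments it had the largest log2 fold change, 3.404 (SE 0.91; adjusted p = 0.2001 in edgeR). Ighv1-63 was at 0.4617, 0 and 0.04656 CPM against 1.528, 1.846 and 1.669 CPM.

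Breadth, the number of segments in use, depended on how many V reads a pool had. With a minimum of 10 reads in the pool, 58, 47 and 51 heavy segments were counted in WT and 74, 77 and 71 in KO. Kappa segments numbered 62, 51 and 55 in WT and 69, 71 and 72 in KO. Every KO pool was above every WT pool in both chains. With a minimum of 1 read, over all V segments in the tables, the heavy counts were 100, 78 and 91 in WT against 108, 100 and 104 in KO, and the kappa counts 96, 80 and 94 against 97, 99 and 96, and the groups overlapped.

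The gap was smaller at a common depth, where a segment counts with at least 1 read in the draw. The expected number of the 96 heavy segments in a draw of 1960 reads, the lowest heavy total, was 89.15, 77.0 and 85.88 in WT and 90.77, 87.68 and 88.65 in KO. For the 93 kappa segments and a draw of 2448 reads it was 86.49, 77.0 and 84.59 in WT and 83.31, 82.63 and 82.68 in KO. The groups overlapped in both chains, and the low value in each was WT pool 2, which set the depth and was also the pool with the T cell transcripts. A part of those transcripts in its V counts was not tested.

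Evenness was summarised by the effective number of segments, the number of equally used segments that would give the same Shannon entropy. In the heavy chain it was 55.52, 47.92 and 44.77 in WT and 59.28, 56.48 and 56.67 in KO, means of 49.4 ± 5.53 and 57.48 ± 1.567 (SD, n = 3 each). The KO pools lay above the WT pools, although WT pool 1 was within 1 segment of KO pool 2. The inverse Simpson index, which weights abundant segments and was corrected for read number, gave 42.51, 37.72 and 31.52 in WT and 47.1, 42.64 and 43.67 in KO, and WT pool 1 again lay next to KO pool 2. The 5 most abundant heavy segments held 22.43%, 24.03% and 29.44% of heavy reads in WT and 20.43%, 22.13% and 21.78% in KO. The number of segments that held 50% of heavy reads was 15, 14 and 11 in WT and 18, 16 and 16 in KO. Without WT pool 2 the difference in effective number was 7.332, against 8.074 with all pools, and it ranged from 5.756 to 11.134 with each pool left out in turn.

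Heavy evenness relative to the number of segments seen (Pielou's index) overlapped between the groups, at 0.8927, 0.8908 and 0.8512 in WT and 0.8965, 0.89 and 0.8886 in KO. In the kappa chain evenness showed no separation by the indices computed. The effective number was 49.02, 45.58 and 43.83 in WT and 47.65, 45.89 and 52.05 in KO, with means of 46.14 ± 2.643 and 48.53 ± 3.17 (SD, n = 3 each). The difference of 2.39 was 0.632 without KO pool 3 and 3.83 without WT pool 1, the range over single pools left out. The inverse Simpson index corrected for read number was 34.11, 34.98 and 29.98 in WT and 33.3, 29.99 and 39.48 in KO. The 5 most abundant kappa segments held 29.06%, 25.98% and 29.7% of kappa reads in WT and 30.52%, 29.95% and 24.49% in KO. Both groups reached 50% of kappa reads with 12 to 14 segments. Whether heavy and kappa chains differ in this respect was not tested.

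**Figure D4:**
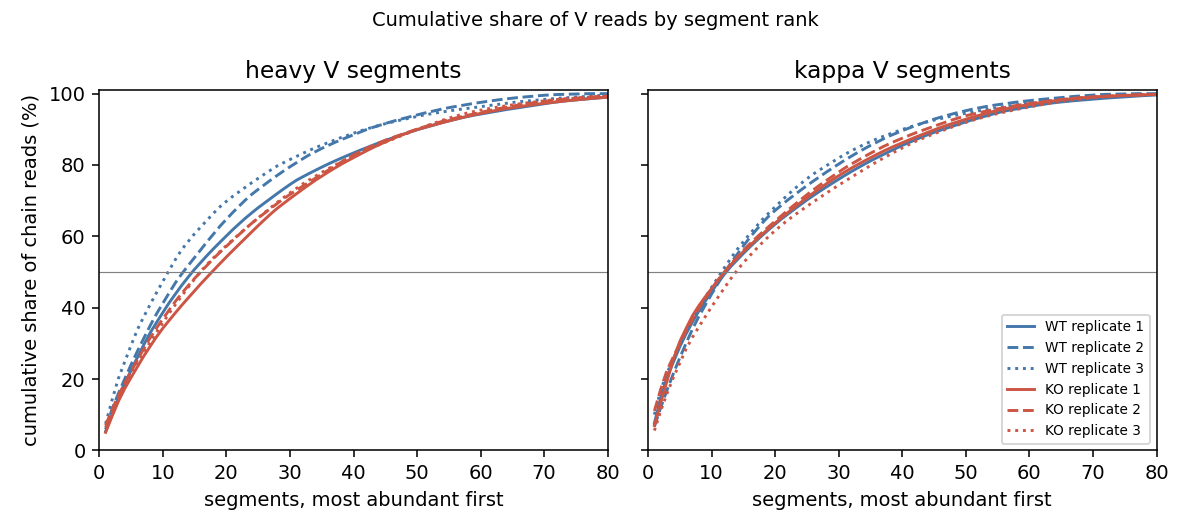
Cumulative share of heavy (left) and kappa (right) V reads, in percent, against the number of segments counted from the most abundant, with 1 line for each pool (WT blue, KO red; solid, dashed and dotted for replicates 1, 2 and 3). In the heavy chain WT pools 3 and 2 climb fastest and WT pool 1 runs close to the KO pools, while the kappa lines interleave.

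The leading segment was not the same from pool to pool. In the heavy chain Ighv3-6 led WT pool 1 with 5.335% of heavy reads (95% Wilson interval 4.531% to 6.273%), KO pool 1 with 5.07% (4.511% to 5.693%) and KO pool 3 with 6.525% (5.901% to 7.209%). Ighv6-3 led WT pool 2 with 5.918% (4.957% to 7.052%), and Ighv9-3 led WT pool 3 with 7.486% (6.533% to 8.567%) and KO pool 2 with 7.07% (6.524% to 7.658%). In the kappa chain Igkv1-117 led WT pool 1 with 7.616% (6.775% to 8.552%) and KO pool 3 with 5.562% (5.046% to 6.128%). The other pools were led by 4 different kappa segments: Igkv3-2 in WT pool 2 with 6.658% (5.737% to 7.716%), Igkv12-89 in WT pool 3 with 10.03% (9.064% to 11.078%), Igkv5-39 in KO pool 1 with 7.009% (6.43% to 7.636%) and Igkv1-110 in KO pool 2 with 11.07% (10.464% to 11.716%). No segment held more than this in any pool.

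As shares of their own chain, which removes the difference in total V level, few segments separated the groups. Of the 189 heavy and kappa segments, 17 (8.99%) had the KO pools wholly above the WT pools, and 10 (5.29%) had them wholly below. By CPM, 8.36% and 9.42% of all genes with at least 10 summed counts did so. The segments that follow are given as a description. Among the 17 were Igkv1-135, at 3.064%, 3.105% and 2.806% of kappa reads in WT and 3.526%, 5.356% and 4.91% in KO, and Igkv10-96, at 2.568%, 2.941% and 2.485% against 3.73%, 3.771% and 4.027%. Ighv14-2 was the named heavy segment among them, at 2.804%, 1.939% and 2.793% against 3.015%, 4.0% and 3.189% of heavy reads. Among the 10 were Ighv6-3, at 3.349%, 5.918% and 3.413% in WT and 2.167%, 1.35% and 1.494% in KO, and Igkv12-89, at 3.297%, 4.371% and 10.03% against 0.7546%, 1.989% and 0.3766%. In this view lower shares go with higher shares elsewhere, since shares of a chain sum to a fixed total.

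The families, groups of segments of like sequence, gave a coarser view that shares fewer reads between close copies. Of 15 heavy families, 8 had every KO pool above every WT pool in CPM and none had every KO pool below, and of 18 kappa families the counts were 11 and 0. Among single genes with at least 10 summed counts, 8.36% lay above and 9.42% below, though families are sums of genes. Ighv1, with 49 segments, held 46.8% ± 5.822 of heavy reads in WT and 47.3% ± 2.506 in KO (SD, n = 3 each). Its level was 50.5 ± 11.7 CPM in WT pools and 113.4 ± 22.23 CPM in KO pools. Igkv4, the kappa family with the most segments (26), held 17.8% ± 1.061 and 16.16% ± 1.717 of kappa reads, and Igkv1, with 8 segments, held 14.32% ± 4.106 and 18.88% ± 3.683.

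By share, 1 of 15 heavy families had all KO pools above all WT pools and 2 had all below, and of 18 kappa families 2 were above and 2 below. By CPM, 8.36% of single genes lay above and 9.42% below, and the families that follow are given as a description. Ighv5, with 9 segments, held 8.684%, 5.357% and 5.974% of heavy reads in WT and 9.084%, 8.713% and 9.641% in KO, and WT pool 1 lay close to the KO pools. Ighv7, with 3 segments, held 5.062%, 6.02% and 3.801% in WT and 2.884%, 3.363% and 1.567% in KO, and the single-segment Ighv13 family held 0.2327% to 0.3115% against 0.1019% to 0.2073%. Among kappa families Igkv10, with 3 segments, held 3.91%, 3.513% and 3.215% of kappa reads in WT and a narrow 5.427%, 5.304% and 5.287% in KO. Igkv5 was also above, at 5.282% to 7.015% against 7.2% to 10.23%. Igkv12 was below, at 8.054%, 12.13% and 17.33% in WT and 4.847%, 7.614% and 5.49% in KO, and its level in CPM overlapped between the groups (17.9 ± 8.75 and 18.78 ± 8.792, SD, n = 3 each). Igkv15 was below as well, at 2.941% to 3.677% against 1.533% to 2.467%.

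**Figure D5:**
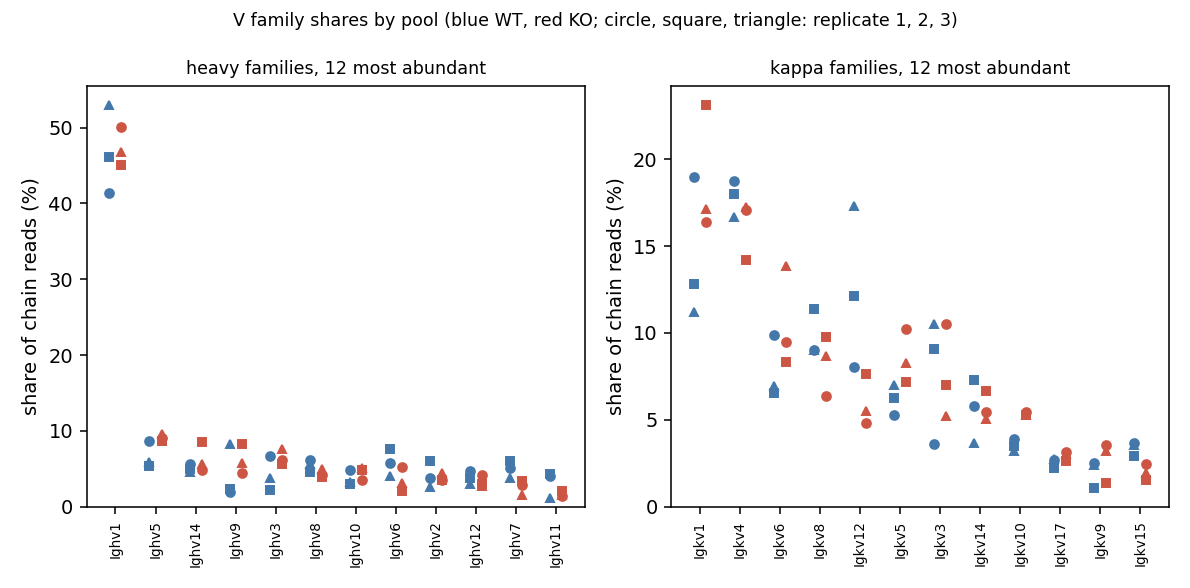
Share of heavy (left) and kappa (right) V reads, in percent, held by the 12 most abundant families of each chain in each pool (WT blue, KO red; circle, square and triangle for replicates 1, 2 and 3). Ighv1 holds 41.32% to 52.91% of heavy reads in all pools, and most families overlap between the groups.

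Segments that textbooks tie to B-1 cells and natural antibodies were looked at apart. Ighv12-3, which pairs with Igkv4-91, was at 4.617, 3.858 and 3.678 CPM in WT and 8.556, 9.466 and 5.823 CPM in KO (log2 fold change 0.97 with SE 0.24; adjusted p = 0.191 in edgeR), and Igkv4-91 was at 7.618, 4.014 and 4.47 CPM against 16.84, 13.63 and 8.695 CPM. Both had all KO pools above all WT pools. Ighv11-2, which pairs with Igkv14-126, was at 4.079, 4.483 and 1.443 CPM in WT and 2.788, 6.481 and 3.261 CPM in KO, and the groups overlapped. Its partner Igkv14-126 was at 5.656, 6.256 and 3.539 CPM against 7.372, 13.87 and 7.841 CPM, without overlap. Ighv7-1, used in antibodies to phosphorylcholine, was at 2.847, 4.171 and 2.142 CPM against 3.82, 5.106 and 1.165 CPM. Igkv7-33, a light chain of such antibodies, had no read in WT pool 1 and KO pools 1 and 3, and was not tested.

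The 3 heavy segments of this set held 11.68%, 12.24% and 6.051% of heavy reads in WT and 7.482%, 6.828% and 4.811% in KO. The groups overlapped through WT pool 3. Together they stood at 10.44 ± 2.793 CPM in WT pools and 15.49 ± 5.41 CPM in KO pools (SD, n = 3 each), a ratio of 1.48, while all other heavy segments had a ratio of 2.34. The 3 kappa segments held 7.872% ± 2.485 and 7.679% ± 1.515 of kappa reads, and their ratio of levels, 2.17, was that of all other kappa segments. A difference between these heavy and kappa ratios was not tested.

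Likeness of segment use was measured for each of the 15 pairs of pools with the Morisita-Horn index, which is 1 when shares are identical and 0 when no segment is shared. In the heavy chain the 3 pairs of KO pools had values of 0.879 to 0.928, the 3 pairs of WT pools 0.687 to 0.762 and the 9 mixed pairs 0.691 to 0.911. In the kappa chain the values were 0.863 to 0.897, 0.729 to 0.815 and 0.627 to 0.901. Corrected for read number, the KO pairs stood at 0.885 to 0.935 in heavy and 0.867 to 0.9 in kappa, and the WT pairs at 0.698 to 0.775 and 0.735 to 0.825. KO pools were thus more like each other than WT pools were, in both chains. WT pool 1 was closer to each KO pool (heavy 0.828 to 0.911, kappa 0.865 to 0.901) than to either other WT pool (heavy 0.759 and 0.762, kappa 0.729 and 0.815). The pairs share pools and are not independent.

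WT pools 2 and 3 each held segments at shares far above the median of the other pools. Taking a share of at least 2% that was at least 4 times the median of the other 5 pools, a rule chosen after the values were seen, 7 segments stood out in WT pool 2, 4 in WT pool 3, 1 each in KO pools 2 and 3, and none in WT pool 1 or KO pool 1. In WT pool 2 these included Ighv1-58 at 3.316% of heavy reads against a median of 0.2327%, and Ighv2-6 at 2.296% against 0.2187%. Not all were highest there: Ighv14-1 held 2.245% in WT pool 2 but 2.752% in KO pool 2. Igkv4-55 held 2.737% in WT pool 2 but 4.852% in WT pool 3. Igkv3-2 held 6.658% in WT pool 2 and up to 4.948% in another pool. In WT pool 3 they included Igkv12-89 at 10.03% against 1.989% and Igkv3-4 at 6.899% of kappa reads against 1.231%. In KO pool 3 Igkv4-79 held 2.564% of kappa reads against 0.1459%, with 6.871 CPM there and 0.1862 to 0.7639 CPM in the other pools.

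Segments of low level were often carried by a single pool. In 32 of 192 segments 1 pool held at least 50% of the summed CPM, against 5.18% of all genes with at least 10 summed counts. Below a mean of 1 CPM this held for 28 of 83 segments (background 14.4%), from 1 to 5 CPM for 4 of 87 (background 1.97%) and from 5 CPM upward for 0 of 22 (background 0.471%). KO pool 2, the pool with the most V reads, was the leading pool in 17 of the 32, KO pool 3 in 6, WT pool 1 in 3, and WT pools 2 and 3 and KO pool 1 in 2 each.

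Position along the loci did not separate the groups. The heavy segments lie on chromosome 12, all on the minus strand, 148.7 to 2570.2 kb from the first J segment, and the mean distance weighted by reads was 1185, 1238 and 1312 kb in WT and 1278, 1230 and 1272 kb in KO. The kappa segments lie on chromosome 6, 18.4 to 3112.1 kb from the first J segment, and the weighted mean distance was 1652, 1463 and 1442 kb in WT and 1529, 1606 and 1534 kb in KO. The kappa locus holds segments in both orientations. Its 34 plus-strand segments held 43.27%, 41.75% and 39.32% of kappa reads in WT and 46.61%, 46.6% and 42.37% in KO, and the groups overlapped.

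Of the 192 segments, 184 are annotated as functional V genes and 8 as pseudogenes. The 8 held 143 reads in all, led by Ighv1-2 with 30 and Igkv4-77 with 28, and they summed to 1.154, 0.7299 and 0.4656 CPM in WT and 0.9931, 1.65 and 0.8152 CPM in KO. The groups overlapped, unlike the total of functional segments. The 156 V segments under the minimum held 158 reads together, and 110 of them had none. Just inside the minimum were Igkv1-132, Ighv1-38 and Igkv12-40 with 10 reads each, and just outside were Ighv3-2 and Ighv6-4 with 9 and Igkv4-54 with 8. Another annotated gene overlaps 3 of the 192 segments (Ighv1-2, Ighv1-5 and Iglv1), which held 3.225% of V reads.

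The summed level of the constant regions that heavy V segments are joined to was also higher in KO. This did not hold for each constant region. Heavy constant regions summed to 848.6 ± 38.99 CPM in WT pools and 1539 ± 347.4 CPM in KO pools (SD, n = 3 each), a ratio of 1.814, and Igha, the constant region of IgA, was 2.787%, 11% and 4.031% of heavy constant reads in WT and 24.01%, 38.4% and 37.61% in KO. The group means of Igha were 49.45 (WT) and 524.6 CPM (KO). Ighm, the most abundant heavy constant region, had means of 754.7 (WT) and 933.3 CPM (KO), and its groups overlapped. Its log2 fold change was 0.31 (SE 0.18; adjusted p = 0.4625 in edgeR). Ighd, Ighg2b and Ighg2c had all KO pools above all WT pools, while Ighg1 and Ighg3 had lower KO means and overlapped. Heavy V reads per 100 heavy constant reads were 11.6, 12.65 and 13.55 in WT and 15.44, 15.9 and 15.59 in KO, without overlap. The heavy constant reads differed in makeup: Ighm and Ighd took 91.8% ± 5.505 of them in WT and 63.85% ± 6.244 in KO (SD, n = 3 each). A part of this makeup in the heavy ratio was not tested. Kappa V reads per 100 Igkc reads were 70.39 ± 5.119 and 72.43 ± 2.814 and overlapped. Lambda V reads per 100 Iglc reads were 39.84, 46.1 and 50.53 in WT and 60.6, 54.96 and 67.43 in KO, without overlap and with a ratio of 1.341.

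Other genes of B-lineage cells, and genes of V(D)J recombination, were read from lists beside the V segments. At an adjusted p of 0.05 edgeR called 0 genes of any list, against 0.0127% of all genes tested. The counts that follow are at an unadjusted p under 0.05, which 4.77% of all genes tested passed as higher and 10.6% as lower in KO. Of the 12 tested constant region and J chain genes, 8 were higher in KO and none lower at that level, with Igha, Iglc1, Igkc and Jchain at log2 fold changes of 3.41, 1.46, 1.09 and 1.76. Of 20 B cell identity genes, 13 were higher and 1 lower, with a median log2 fold change of 0.58. They included Cxcr5, a homing receptor of follicles, Blk, a kinase of the B cell receptor, and the surface protein Cd22, at 0.63, 0.73 and 0.56. The lower gene was Ebf1, a transcription factor of B cells, at -0.42. Of 20 plasma cell and secretory genes 4 were higher and 1 lower (median 0.30): Creld2, Derl3 and Xbp1, which serve protein folding and secretion, were at 0.66, 1.68 and 0.38, and Sdc1, the plasma cell surface marker, at -0.41. The 13 B-1 and innate-like genes had 2 higher and 1 lower (median 0.20), and the 9 tested genes of V(D)J recombination and class switching had none in either direction (median -0.10). Of the V(D)J list, Rag1, Rag2 and Dntt were highest in WT pool 2, then in KO pools 3 and 1, the order of the T cell list. Dntt was at 139.5 CPM in WT pool 2, 21.54 and 35.52 CPM in KO pools 1 and 3, and 0.5587 to 0.7463 CPM elsewhere. Igll1 had 0 CPM in every pool and Vpreb1 0 to 0.3438 CPM. Which cells these transcripts came from was not tested. Without WT pool 2 all 9 tested V(D)J genes had positive log2 fold changes (median 0.59), and 3 were higher at an unadjusted p under 0.05. In that setting 594 of all 15989 genes tested were higher and 1364 lower. The constant region and J chain list then had 6 higher and 1 lower, and the B cell identity list 7 and 0. The plasma cell list had 3 and 1, and the B-1 list 3 and 0. With all pools, DESeq2 called 6 of the constant region and J chain genes, 4 of the B cell identity genes and 2 of the plasma cell genes, all higher. Of all genes tested it called 0.586% higher and 2.28% lower.

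Set against B cell genes, the V level was 2.86, 3.572 and 4.697 times the Cd79a level in WT pools and 5.122, 5.111 and 5.404 times in KO pools, without overlap. Cd79a encodes a signalling chain of the B cell receptor. Against Ms4a1, which encodes the B cell surface protein CD20, the ratios were 2.483, 2.758 and 4.194 in WT and 5.489, 3.821 and 4.445 in KO, and against Jchain, which links secreted IgA and IgM, they were 11.54, 5.539 and 8.199 against 6.365, 4.702 and 4.774. The groups overlapped for Ms4a1 and Jchain.

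Markers of other cell types differed between the groups as well. In edgeR all 10 endothelial genes had lower KO levels and an unadjusted p under 0.05 (background 10.6%), with a median log2 fold change of -1.09 and a summed level of 2090 to 3490 CPM in WT and 1130 to 1486 CPM in KO. DESeq2 called all 10 lower (background 2.28%). Genes of resident macrophages were on the positive side in 10 of 10 cases (median log2 fold change 0.42). Of these, 3 had an unadjusted p under 0.05 (background 4.77%). The sum of these genes was lowest in WT pools 2 and 3 (5253 and 6214 CPM) and 8793 to 9265 CPM in the other 4 pools. Without WT pool 2, 9 of the 10 macrophage genes were positive (median 0.25), and 1 was higher at an unadjusted p under 0.05. With all pools the 13 tested T cell genes had a median of -0.74, with none at an unadjusted p under 0.05. Without WT pool 2 the median was 2.69, the fold change was positive in 13 of 13 genes and 11 were higher in KO at that level. Of all 15989 genes tested without that pool, 594 were higher at that level. The median was 0.97 with limma-voom and all pools. A part of the cell makeup of the pools in the V segment values was not tested.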

How the data were processed

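Per the labels' protocols, RNeasy Mini columns were used for RNA and a strand-marking NEBNext Ultra II kit for the libraries. The authors deposited, for each of the 6 pools, raw read counts by gene without normalization. The submitters' processing notes name STAR, HTSeq, DESeq2 and GRCm38. The gene annotation was not given in the sources used here, nor were tool versions or the strand option. Gene totals were 17780707 to 27485129 reads. Counters that name no gene (no feature 5.9% to 8.62%, ambiguous 1.49% to 1.72%, not unique 7.58% to 8.67% of counted reads) entered neither library sizes nor tests.

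Levels are CPM (reads divided by the TMM-scaled library size). KO was compared with WT in edgeR 4.0.16 (R 4.3.3; filterByExpr, minimum count 10; quasi-likelihood F test, two-sided, Benjamini-Hochberg adjustment over all 15707 genes kept, threshold 0.05), and the V segments were read from that fit. Alternatives used DESeq2 1.42.0, limma-voom (limma 3.58.1), other scalings and filters, the replicate number as a block, and each pool left out in turn. Sums, breadth, evenness and likeness over segments are given per pool without a test. Segment positions, exon lengths and sequences came from GENCODE M21 on GRCm38.

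The members, gene lists and tests were chosen with earlier results of these data known. Named segments were the 6 heavy and 6 kappa segments with the highest mean CPM, all lambda segments, the leading heavy and kappa segment of each pool, the 14 segments with the smallest p at a mean of at least 1 CPM, and the textbook B-1 and natural antibody segments. From each gene list, at most the 4 tested genes with the smallest p at a mean of at least 1 CPM were eligible for naming.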

Additional observations from a re-analysis of the deposited data

How the results depend on the processing

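The summed level of each chain kept its direction under every scaling, member rule and left-out pool that was run. The effective number did so under every member rule, left-out pool and inverse Simpson index. For kappa, however, its difference of 2.39 was below the pool SD of 2.918, and the groups overlapped. Kappa means in WT and KO were 0.865 and 0.8647 for Pielou's index and 28.25% and 28.32% for the share of the 5 most abundant segments. Counts of calls varied more. The count of all genes called by edgeR, 2 with every pool, was 831 with DESeq2, 1 with limma-voom, 782 without the filter and 1 to 1338 with single pools left out. The count of V segments called, 0 with every pool, was 57 with DESeq2, 55 without the filter and 0 to 29 with single pools left out, the highest without WT pool 1. The 78 V segments at an unadjusted p under 0.05 became 15 of 22 tested at a mean of at least 5 CPM, all higher, where 4.59% of all genes tested were higher and 11.6% lower. The count of listed companion genes called was 0 with every pool and 2 with the replicate block, both higher. With DESeq2 it was 22, of which 12 were higher and 10, all endothelial, lower. Of all genes tested, DESeq2 called 0.586% higher and 2.28% lower. With single pools left out the count was 0 to 26. The 26, without WT pool 1, were 16 higher and 10 lower, 9 of these endothelial. In that setting 2.33% of all genes tested were called higher and 5.97% lower. With at least 10 reads, 22 heavy and 14.667 kappa segments more were counted in KO, and with at least 1 read 14.333 and 7.333. At a common depth, with at least 1 read in the draw and only the 96 heavy and 93 kappa segments taken, the difference was 5.022 and 0.179. The step from at least 10 reads to the common depth thus changes the read minimum as well as the depth. The cause of these shifts was not tested.

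Deviations from the group means had correlations of 0.128, -0.154 and 0.024 between same-numbered WT and KO pools. Whether same-numbered pools shared a batch was not tested. With the replicate block edgeR called 3 genes in all, 2 of them higher, and 0 V segments, with 81 V segments higher at an unadjusted p under 0.05 against 5.99% of all genes tested, and not every pool correlated best with its own number. Of the 30 named segments tested, 22 were called with DESeq2, 22 without the filter and 17 without WT pool 1. Many of them were named for a small p in the edgeR fit of the same counts, so high call rates were favoured by that choice. Over all V segments tested, the calls in these settings were 57 of 192, 55 of 192 and 29 of 148. Of all genes tested, 0.586%, 0.479% and 2.33% were called higher in KO. Log2 fold changes changed sign for Ighv6-3 without WT pool 2 (range over left-out pools -0.367 to 0.073), for Ighv11-2 without WT pool 3 (-0.032) or KO pool 2 (range -0.137 to 0.58), and for Ighv7-1 with limma-voom (-0.040), with the replicate block (-0.016), without WT pool 3 (-0.053) or KO pool 2 (range -0.284 to 0.545). The median of the T cell list was -0.74 with all pools, 0.97 with limma-voom, 1.22 with the replicate block and 2.69 without WT pool 2. The alternatives that divided counts by exon length, kept only segments with at least 50% of 50-base windows unique or corrected for read number were added after the data were seen. The first 2 gave differences in effective number of 7.893 and 5.841 for heavy and 2.801 and 0.834 for kappa segments. V reads per pool numbered 4597 to 18339, so segments below a mean of 1 CPM rest on few reads.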
